A study of Mus musculus with 12 samples.

Results

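The mouse testis was compared before and after the appearance of haploid germ cells, by setting 4 mice of the meiotic ages, PND 14 and PND 17, against 4 mice of the postmeiotic ages, PND 21 and PND 28. These are 8 of the 10 mice of the series. The sides were formed only from the age in the sample labels, with 2 mice at each age, and the remaining 2 mice, at PND 7, are given beside them as a reference. All were untreated C57BL/6NHsd mice, an inbred laboratory strain, and PND is the postnatal day. RNA depleted of ribosomal RNA was taken from the whole testis and sequenced on the SOLiD 4, and the deposited tables give the count of reads on each of 37675 genes. Total counts were between 3994026 and 13559548 in the meiotic mice and between 4018007 and 8830079 in the postmeiotic mice. Levels are stated as CPM, the count of a gene scaled to a common library size, with TMM factors that correct the library totals for a few very abundant RNAs. A count of 0 in a mouse allowed a level of up to 0.217 CPM in the deepest of the 8 libraries and 0.745 CPM in the shallowest.

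Spermatogenesis begins synchronously after birth in the mouse, so that each age of the first wave adds later germ cells to those already present. At PND 14 and 17 the most advanced cells are spermatocytes in the prophase of meiosis, in which homologous chromosomes pair and recombine. By PND 21 the meiotic divisions have given round spermatids, and by PND 28 spermatids elongate, build the acrosome and the flagellum, and replace their histones with transition proteins and protamines. Because the RNA came from the whole testis, a lower number of cells of a type and less RNA per cell of that type cannot be told apart, and a rise of germ cell RNA lowers the share of every other cell.

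The library of PND 14 mouse 1 stood apart from the other 3 meiotic mice in the genes of late spermatids. This was seen in 170 genes that were called higher on the postmeiotic side, had a mean of at least 10 CPM, and whose mean at PND 21 was under 10% of that at PND 28. PND 14 mouse 1 held a median of 3.41% of the PND 28 level of these genes and passed 1% for 169 of them. The median was 0.228% in PND 14 mouse 2, 0.326% in PND 17 mouse 1 and 0.374% in PND 17 mouse 2. At PND 21, where the rule itself kept the values low, it was 6.08% in mouse 1 and 4.69% in mouse 2. Results that rest on these genes are given with and without this mouse, and the source of the trace was not tested. Testis RNA was present in every mouse, as Sertoli cell markers summed to at least 1683 CPM and the spermatocyte gene Sycp2 reached at least 470 CPM in all 8. These markers do not show that a library held testis alone, and markers of the epididymis are described below.

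**Figure D1:**
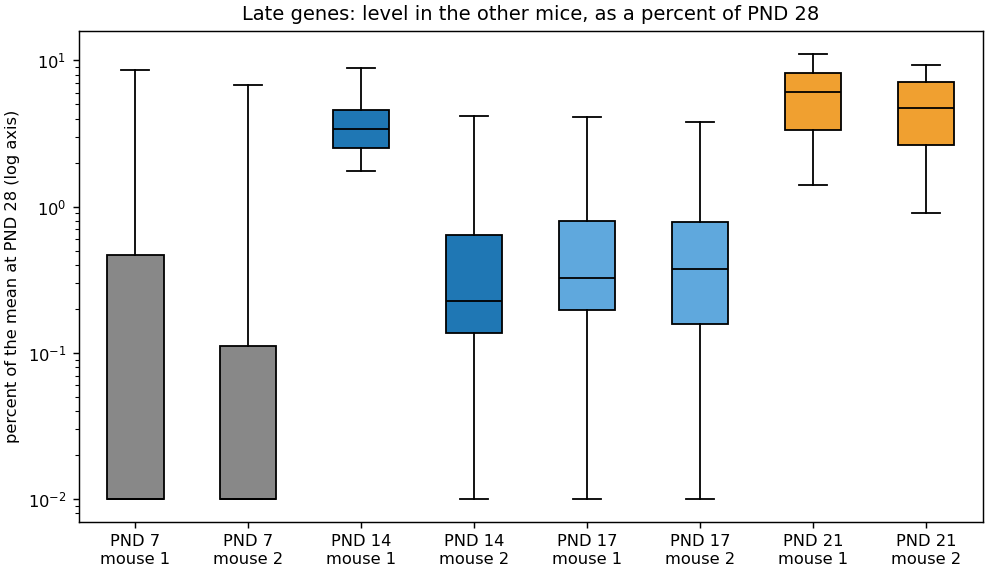
Level of 170 late genes in each mouse of PND 7 to PND 21, as a percent of their mean at PND 28 on a log axis, with values under 0.01% drawn at 0.01%. Boxes span the quartiles with the median as a line, and whiskers span the 5th to the 95th percentile over genes. PND 14 mouse 1 has a median of 3.41%, against 0.228% to 0.374% in the other 3 meiotic mice.

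Of 14829 genes tested, 4494 were called different between the sides (30.3%), with an adjusted p below 0.05 in edgeR's quasi-likelihood test and at least a 2-fold difference. The postmeiotic side was higher in 2875 genes (19.4%) and lower in 1619 (10.9%). The rises were far larger than the falls. The median log2 fold change was 2.16 among the genes called higher and -1.23 among those called lower, and a change of at least 8-fold was seen in 889 of the former and 6 of the latter. All 4 postmeiotic mice were above all 4 meiotic mice for 3434 genes (23.2%) and below them for 3577 (24.1%). Of the called genes, 2560 of those higher and 1459 of those lower had no overlap between the sides. The median over all genes tested was -0.15, and it became -0.04 with RLE scaling and -0.32 with library totals, so changes near this size depend on the scaling. The split of higher against lower calls was 3140 to 1121 with RLE and 2559 to 2554 with library totals. Without PND 14 mouse 1, 2919 genes were called higher and 1404 lower, and 2668 of the 2875 genes remained called higher.

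Among genes that averaged 10 CPM or more and did not overlap between the sides, the 10 largest rises were in genes at or near 0 on the meiotic side. Adam24, a testis-specific member of the ADAM family of membrane proteins, had 1.46 and 0 CPM at PND 14, 0.29 and 0.248 at PND 17, 43.6 and 32.5 at PND 21 and 183 and 194 at PND 28. Its fitted log2 fold change was 7.69 (SE 0.96, adjusted p = 0.00113), and 9.06 without PND 14 mouse 1. Adam29, another member of this family, had 0 to 0.788 CPM in the meiotic mice and 9.16 to 82.7 in the postmeiotic mice, a log2 fold change of 7.10. The uncharacterized 1700022P22Rik was the leading gene at 7.82 (SE 1.06). It had 7 counts over the 4 meiotic mice, 6 of them in PND 14 mouse 1, and 1240 over the postmeiotic mice. The ratio of its pooled levels was 271, with a 95% counting interval of 131 to 675. The other genes of these 10 were Gm13872, 4921534H16Rik, Prr22, Fam47a-ps, Nipsnap3a, 4921501E09Rik and Plac8l1, with log2 fold changes of 7.67, 7.58, 7.18, 7.12, 7.11, 7.09 and 7.02. In Gm13872 the meiotic side had 3 counts, all in PND 14 mouse 1, and the ratio was 255 with an interval of 86.8 to 1242. All 10 genes had 0 to 1.46 CPM in every meiotic mouse and at least 2.94 in every postmeiotic mouse, and all were higher at PND 28 than at PND 21.

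The most abundant of the genes called higher, by the mean RPKM on the postmeiotic side, were Ldhc, Tnp1, Fabp9, Tnp2 and Prm1. Ldhc encodes the lactate dehydrogenase subunit of germ cells. Its level was 487 and 973 CPM at PND 14, 1485 and 920.1 at PND 17, 2631 and 3218 at PND 21, and 5856 and 5298 at PND 28. The sides did not overlap, and the log2 fold change was 2.14 (SE 0.40, adjusted p = 0.00278). Ldhc was nearly absent at PND 7, with 0.2 and 0 CPM, so that it was already strongly present on the meiotic side. Fabp9, a fatty acid binding protein of germ cells, had 129 to 277 CPM on the meiotic side and 432 to 1184 on the postmeiotic side, a log2 fold change of 1.92 (adjusted p = 0.0038). On the RPKM scale, which allows genes to be compared, the postmeiotic mean was 2498 for Ldhc, 1918 for Tnp1, 1306 for Fabp9, 1249 for Tnp2 and 1162 for Prm1.

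**Figure D2:**
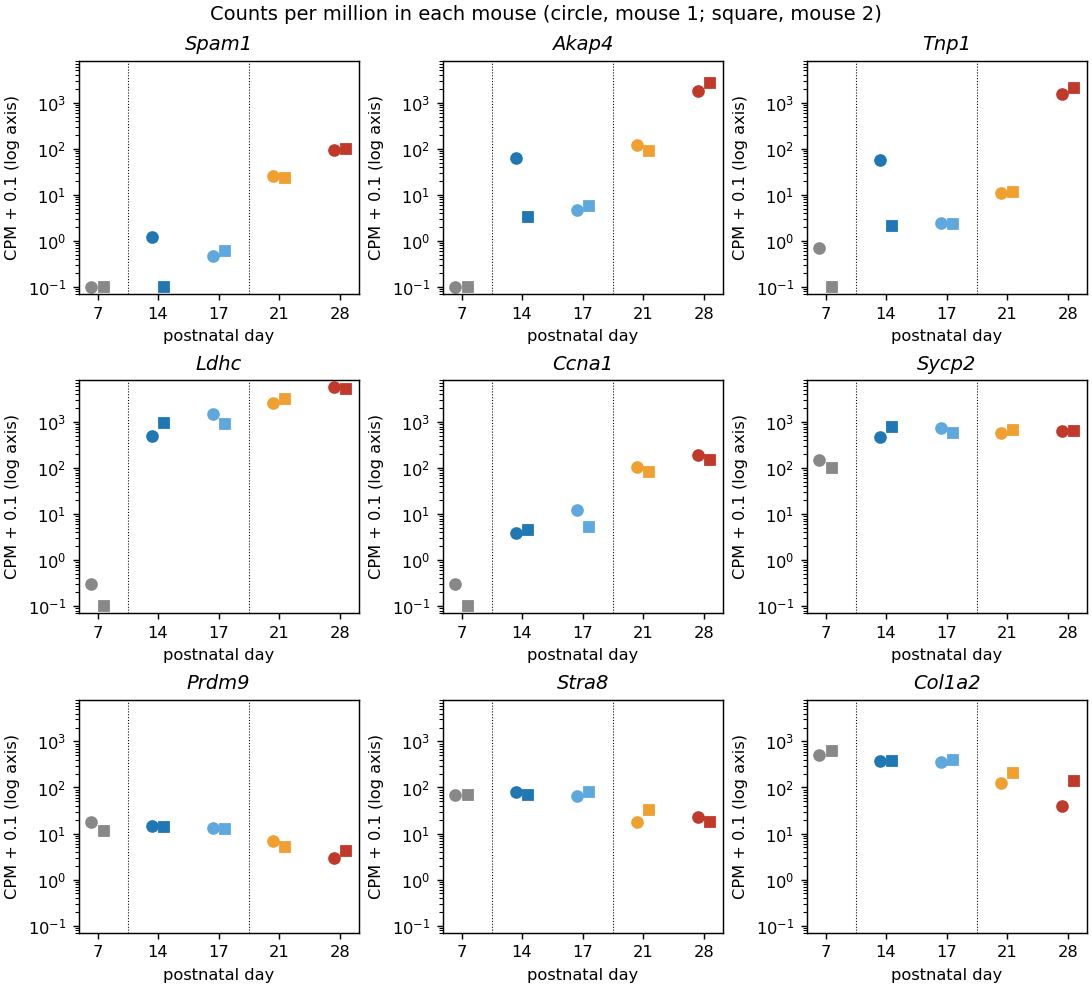
CPM of 9 genes in each mouse against postnatal day, with 0.1 added and on a log axis. Circles are mouse 1 and squares mouse 2 of an age, and dotted lines separate PND 7, the meiotic side and the postmeiotic side. Spam1 and Ccna1 step up between PND 17 and PND 21, Tnp1 goes from 10.7 and 11.2 at PND 21 to 1535 and 2051 at PND 28, Sycp2 lies between 470 and 771 in the 8 mice, and Prdm9, Stra8 and Col1a2 are lower on the postmeiotic side.

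Genes of the acrosome and of gamete fusion rose as a group. The acrosome is the vesicle over the sperm nucleus whose content is released at fertilization. All 30 tested members were called higher and none lower. Their log2 fold changes were 2.07 to 9.08, with a median of 4.80, against -0.15 over all genes. Over all genes tested 19.4% were called higher and 10.9% lower, the shares to set beside each list below. Members near 0 on the meiotic side, such as Spaca5, passed the filter on low counts, set by side, only through the postmeiotic mice. Such members could not be called lower, here or in the lists below. The 4 largest rises were in Spaca5, Spam1, Izumo3 and Lyzl4. Spam1, the hyaluronidase of the sperm surface, had 1.13 and 0 CPM at PND 14, 0.362 and 0.497 at PND 17, 25.3 and 23.2 at PND 21, and 94.8 and 100.4 at PND 28. The log2 fold change of Spam1 was 6.88 (SE 0.82, adjusted p = 0.00112). Izumo3, a relative of the fusion protein Izumo1, went from at most 1.35 CPM to at least 13.7, a log2 fold change of 6.86. Lyzl4, a lysozyme-like protein, had 7 meiotic and 560 postmeiotic counts. The X-linked Spaca5 had no count in any meiotic mouse, and with 219 counts on the postmeiotic side it was at least 112-fold higher there, against a floor of 3 counts over the 4 meiotic mice. The smallest rises were about 4-fold, as in Pcsk4, a convertase of sperm proteins, at 2.07. Ace, angiotensin-converting enzyme, was at 2.19 and was the member whose sides overlapped, with 39.5 to 57.2 CPM on the meiotic side, 44.9 and 55.1 at PND 21 and 331 and 402 at PND 28. Acr, the protease acrosin, was already transcribed on the meiotic side, with 11.7 to 15 CPM, and reached 40.8 to 104, a log2 fold change of 2.65 (SE 0.29). Tmem95 was not found in the tables. Of the 30 genes, 29 were called higher also when only the PND 21 mice stood for the postmeiotic side.

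Genes of the flagellum rose in all tested members as well, with 35 of 35 called higher and a median of 2.53. The range was from 1.08 in Spef1, a protein of the axoneme, to 6.30 in Fscb, a protein of the fibrous sheath. Fscb had 7.66 and 0.407 CPM at PND 14, 0.579 and 0.248 at PND 17, 39.2 and 28.5 at PND 21, and 298 and 376 at PND 28. Akap4, the X-linked main protein of the fibrous sheath, had 62.4 and 3.12 CPM at PND 14, 4.64 and 5.71 at PND 17, 118 and 90.4 at PND 21 and 1819.6 and 2718 at PND 28. Its log2 fold change was 5.95 (SE 1.49, adjusted p = 0.00986), and it was 8.06 without PND 14 mouse 1, whose 62.4 CPM lay near the PND 21 values. Ropn1, an anchor of protein kinase A in the sheath, had a log2 fold change of 6.09 and Odf3, of the outer dense fibers, 5.79. Among axonemal genes the fold changes were 1.74 for Dnahc1, 1.84 for Dnaic1, 2.17 for Spag6 and 2.22 for Hydin. Tcte3 had 0 counts in all mice and was not tested. With the PND 21 mice alone, 30 of the 35 were called higher.

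Of the CatSper calcium channel and other ion transporters of sperm, 14 of 16 tested genes were called higher and none lower, with a median of 3.01. Catsper4 had 2.93 and 0.136 CPM at PND 14, 0.145 and 0.248 at PND 17, 21.8 and 13.7 at PND 21, and 124 and 136 at PND 28. This was a log2 fold change of 6.33 (SE 1.14, adjusted p = 0.00242). The other pore subunits were at 5.92 for Catsper3, 5.34 for Catsper1 and 2.89 for Catsper2. Among the accessory subunits, Catsperb was at 2.35 and Catsperg2 at 1.67. Atp1a4, the sperm sodium pump subunit, went from 1.08 to 18.5 CPM on the meiotic side to 25.1 to 588 on the postmeiotic side, a log2 fold change of 5.61. Not called were the calcium pump Atp2b4, at 0.56 (adjusted p = 0.118), and the proton channel Hvcn1, at -0.60. Lrrc52, a subunit of a sperm potassium channel, was removed by the filter on low counts and not tested. It had 0 to 3 counts in the meiotic mice, 10 and 9 at PND 21, and 107 and 46 at PND 28.

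Genes of sperm energy metabolism were called higher in 13 of 18 cases and lower in none, with a median of 2.12. Sperm take part of their energy from glycolysis, with enzymes that exist in a form of their own in germ cells. These were Aldoart1 at 5.74, Gapdhs at 4.90, Aldoart2 at 4.57 and Pgk2 at 4.28. Pgk2 had 28.9 and 24.5 CPM at PND 14, 55.2 and 20.9 at PND 17, 227 and 278 at PND 21, and 893 and 1132 at PND 28 (SE 0.60, adjusted p = 0.00135). Gapdhs had 24.7 CPM in PND 14 mouse 1 and 0.678 to 1.49 in the other meiotic mice, against 34.5 and 21.8 at PND 21 and 394 and 402 at PND 28. The sides of Gapdhs thus overlapped through 1 mouse, and its log2 fold change was 7.74 without it. Its call was lost without PND 17 mouse 2. The ADP/ATP carrier of germ cells, Slc25a31, was not called, at -0.28 (adjusted p = 0.205), with 122 to 184 CPM on the meiotic side and 118 to 155 on the postmeiotic side. The other uncalled members were Cyct, Gpi1, Pdha2 and Cox6b2.

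**Figure D3:**
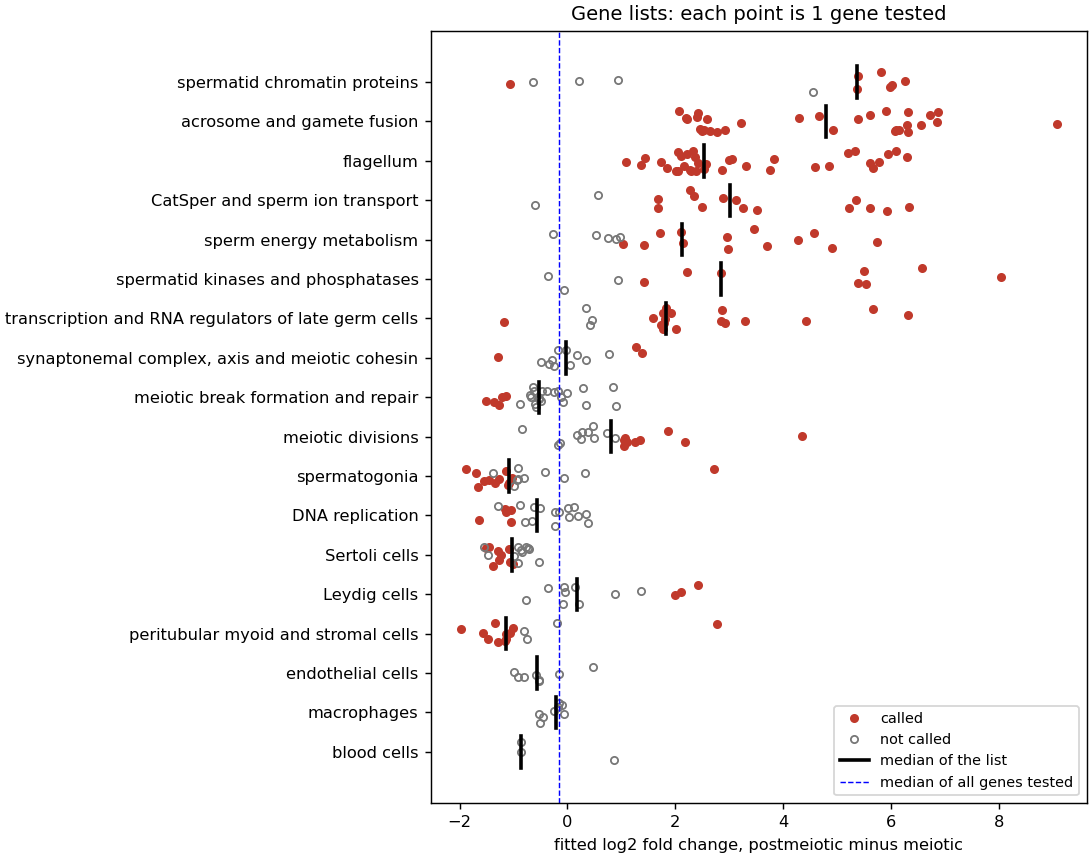
Fitted log2 fold change, postmeiotic minus meiotic, of each gene tested in 18 lists. Filled points are called genes, open points are not called, black bars are list medians and the dashed line is the median of all genes tested, -0.15. The acrosome and flagellum lists hold only genes called higher, and the Sertoli list lies wholly to the left of 0.

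The proteins that package spermatid chromatin differed from these lists in their timing. Of 11 tested genes, 6 were called higher and 1 lower, with a median of 5.37. Tnp1, transition protein 1 (mm9 chromosome 1, 73061657 to 73062473, minus strand), had 56.9 and 2.03 CPM at PND 14 and 2.32 and 2.24 at PND 17. It had 10.7 and 11.2 at PND 21 and 1535 and 2051 at PND 28. Its log2 fold change was 5.81 (SE 1.94, adjusted p = 0.0322), but the sides overlapped, because PND 14 mouse 1 was above both PND 21 mice. Tnp2, transition protein 2, had 36.4 and 3.12 CPM, 3.33 and 3.98, 7.64 and 13.5, and 1440.3 and 1626 at the 4 ages in order, a log2 fold change of 6.02 (adjusted p = 0.02). Prm1, protamine 1, had 53.9 and 1.08, 1.45 and 0.994, 5.56 and 6.57, and 1110.3 and 1330.0, with 5.39 (adjusted p = 0.0479). Prm2 had the same form but was not called, at 4.55 (adjusted p = 0.0647). With the PND 28 mice left out, the log2 fold changes turned to -0.56 for Tnp1, -0.16 for Tnp2 and -1.27 for Prm1, none of them past the threshold, and 1 of the 11 genes was called. These signs go with the levels of PND 14 mouse 1, since both PND 21 mice were above each of the other 3 meiotic mice in all 3 genes. Without PND 14 mouse 1, they were 8.67 for Tnp1, 7.81 for Tnp2 and 8.95 for Prm1, and 7 of the 11 were called higher. The calls of Tnp1 and Prm1 were lost without PND 14 mouse 2, either PND 17 mouse or either PND 28 mouse, and that of Tnp2 without PND 14 mouse 2 or PND 17 mouse 2. The count of 6 became 3 without PND 14 mouse 2 or PND 17 mouse 2, and 4 without either PND 28 mouse.

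Hils1, the spermatid linker histone, was the earliest of the packaging proteins. It had 38.7 and 40.4 CPM at PND 21 and 569 and 539 at PND 28, against 11.6 in PND 14 mouse 1 and 0.949 to 1.3 in the other meiotic mice. The log2 fold change of Hils1 was 6.26 (SE 1.28, adjusted p = 0.0041), with no overlap between the sides. H1fnt, a further linker histone of spermatids, was at 5.99 and Prm3 at 5.37. The histones of spermatocytes went the other way or did not pass the test. Hist1h2aa, a core histone variant of the testis, fell by 1.07 on the log2 scale, from 117 to 148 CPM down to 44.5 to 92.3. Hist1h2ba, another such variant, was at -0.63 and was not called (adjusted p = 0.0328, under 2-fold), and the spermatocyte linker histone Hist1h1t was at 0.22 (adjusted p = 0.548).

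Among kinases and phosphatases of spermatids, 8 of 11 tested genes were called higher and none lower, with a median of 2.85. The testis-specific serine kinases made up the top of the list. Tssk5 was at 8.03, with a single count on the meiotic side and 301 on the postmeiotic side. Tssk2 followed at 6.57, Tssk3 at 5.54, Tssk4 at 5.51 and Tssk1 at 5.39. Tssk2 had 5.41 CPM in PND 14 mouse 1, 0.136 to 0.248 in the other meiotic mice, 19 and 19.4 at PND 21 and 282 and 287 at PND 28. The kinase Stk31 was not called, with 239 to 375 CPM against 245 to 368 and a log2 fold change of -0.06 (adjusted p = 0.827), a value whose sign changed with RLE scaling. Tssk6 was removed by the filter on low counts and not tested. It had 2 to 40 counts in the meiotic mice, 1 and 9 at PND 21, and 618 and 512 at PND 28. The filter, set by side, could thus remove a gene that was high at PND 28 alone.

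Regulators of transcription and RNA in late germ cells were called higher in 16 of 20 cases and lower in 1, with a median of 1.82. Crem, a transcription factor that activates spermatid genes, had 54.1 to 94.4 CPM on the meiotic side, 135 and 185 at PND 21 and 435 and 359 at PND 28, a log2 fold change of 1.80 (SE 0.37, adjusted p = 0.00424). Fhl5, a coactivator of Crem in the testis, rose much more, by 5.68, from at most 5.86 CPM to 184 and 279 at PND 28. Kif17, a kinesin that moves Fhl5 out of the nucleus, was at 4.42. Mbd3l1, a relative of methyl-CpG binding proteins, was at 6.31. Papolb, the cytoplasmic poly(A) polymerase of spermatids, had 53.2 and 74 CPM at PND 14, 127 and 70.6 at PND 17, 511 and 482 at PND 21, and 1104 and 1093 at PND 28, a log2 fold change of 3.29 (SE 0.39). Taf7l, an X-linked subunit of the transcription factor TFIID in germ cells, was the exception. It fell by 1.17 on the log2 scale, from 123 to 132 CPM down to 47.6 to 69.5 (adjusted p = 0.00126). Piwil1, a piRNA-binding protein of spermatocytes and round spermatids, was not called at 0.46, with 240 to 435 CPM on the meiotic side and 423 to 621 on the postmeiotic side.

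Crem and its relatives bind the cAMP response element (CRE), whose full letters are TGACGTCA. RefSeq promoters of GRCm38.p6, 250 bases before to 50 after a start site, were searched on both strands, and 1802 of the symbols called higher had one. The full element was in 3.72% of the genes called higher, 2.37% of those called lower, 3.56% of the genes tested and 2.03% of all genes with a promoter. Its first 5 letters, TGACG, which every full element also holds, were in 30.6%, 26.1%, 34.0% and 23.0% respectively. The share of genes called higher was thus close to that of all genes tested for the full element and below it for the short letters. The full element was in the promoter of 3 of the listed genes called higher, Izumo1, Kif17 and Nr6a1. Izumo1 and Kif17 are shown because they hold it, while most genes called higher do not. The sequences below give bases -130 to -31 from the start site for Izumo1 and Kif17, for Prm1, which holds the variant TGACTTCA, and for Tnp1, which holds neither. Tnp1 holds tgatgtca, which is as close to the full element in letters as the variant in Prm1. These letters were not searched for in the other promoters. All 4 genes rose by over 4 on the log2 scale. Capitals mark the element or its variant.
Izumo1, GRCm38.p6 chr7:45621681-45621780, plus strand: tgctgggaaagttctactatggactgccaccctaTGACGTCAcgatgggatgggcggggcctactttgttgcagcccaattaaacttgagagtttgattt
Kif17, GRCm38.p6 chr4:138262121-138262220, plus strand: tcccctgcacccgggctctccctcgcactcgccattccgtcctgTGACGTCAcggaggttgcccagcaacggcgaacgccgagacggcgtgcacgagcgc
Prm1, GRCm38.p6 chr16:10796854-10796953, minus strand: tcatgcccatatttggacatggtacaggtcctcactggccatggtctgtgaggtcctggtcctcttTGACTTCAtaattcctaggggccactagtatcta
Tnp1, GRCm38.p6 chr1:73015930-73016029, minus strand: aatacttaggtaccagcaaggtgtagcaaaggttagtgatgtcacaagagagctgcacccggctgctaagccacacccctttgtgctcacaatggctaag
The element begins 96 bases upstream of the start in Izumo1 and 86 bases upstream in Kif17, and the variant 64 bases upstream in Prm1. Izumo1, the sperm protein that binds the egg, had 0.724 to 2.7 CPM on the meiotic side, 14.8 and 12.3 at PND 21 and 95.8 and 92.4 at PND 28, a log2 fold change of 4.93. The variant, searched after the values were seen, was in 1.78% of the genes called higher, 1.55% of those called lower and 1.32% of the genes tested. A match of letters does not show that a factor binds there.

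Of 13 genes of the synaptonemal complex, the chromosome axis and meiotic cohesin, 2 were called higher and 1 lower, and 10 were not called, beside 10335 of the 14829 genes tested. These shares are near those of all genes. The median was -0.02, which became 0.09 with RLE scaling and -0.18 with library totals. Sycp2, a protein of the lateral elements, had 470 and 771 CPM at PND 14, 744 and 593 at PND 17, 572 and 685 at PND 21, and 654 and 625 at PND 28 (adjusted p = 0.929). Sycp1, of the transverse filaments, was not called at -0.50, although its mice did not overlap, with 454 to 693 CPM against 393 to 439. The synaptonemal protein Syce1 rose by 1.38 (SE 0.32, adjusted p = 0.00717), from 101 to 213 CPM to 267 to 617. The cohesin subunit Rec8 was called higher at 1.27, a call that was lost without PND 14 mouse 2, either PND 17 mouse or either PND 28 mouse. The cohesin subunit Rad21l fell by 1.29, from 21.1 to 29.1 CPM down to 7.29 to 11.6 (adjusted p = 0.00188).

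The genes that make and repair the programmed DNA breaks of meiosis were lower in 5 of 26 cases and higher in none, with a median of -0.53, beside 10.9% of all genes tested called lower. These 5 were Prdm9, Mei4, Tex11, Atm and Dmc1. Prdm9, the histone methyltransferase that marks the sites of breaks, had 14.2 and 14 CPM at PND 14, 12.9 and 12.2 at PND 17, 6.95 and 5.01 at PND 21 and 2.86 and 3.98 at PND 28. It fell by 1.52 on the log2 scale (SE 0.28, adjusted p = 0.00269). Atm, the kinase that responds to breaks, fell by 1.22, from 145 to 189 CPM down to 52.1 to 90.7. Dmc1, the recombinase, fell by 1.13, from 67.7 to 82 CPM down to 29.9 to 39.6. Tex11, an X-linked gene of crossover formation, fell by 1.28 and Mei4, needed for break formation, by 1.37. The kinase Atr was the most abundant member and was not called, at 0.33 (adjusted p = 0.236). Spo11, the enzyme that cuts the DNA, moved the other way from Prdm9 and Dmc1, with 41.1 to 59.2 CPM on the meiotic side and 92.4 to 107 on the postmeiotic side. Its log2 fold change of 0.90 (adjusted p = 0.00243) was under 2-fold and so was not called.

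Genes of the meiotic divisions rose in 9 of 20 cases and fell in none, beside 19.4% of all genes tested called higher. The median was 0.81, and the count of 9 became 7 on leaving out any mouse but PND 21 mouse 2. With library totals as the scale, 5 were higher and 1 lower. Ccna1, the cyclin of the meiotic divisions in males, had 3.83 and 4.34 CPM at PND 14, 12 and 5.22 at PND 17, 107 and 82.9 at PND 21, and 193 and 149 at PND 28. Its log2 fold change was 4.36 (SE 0.44, adjusted p = 0.00112). Plk1, a kinase of the spindle and centrosome, had 7.21 to 8.81 CPM and then 16.9 to 54.7, a log2 fold change of 2.17. Aurka, a spindle kinase, rose by 1.87 and Eif4g3, a translation factor needed for division in spermatocytes, by 1.35. Bub1, of the spindle checkpoint, was not called, at -0.18 (adjusted p = 0.358).

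Markers of spermatogonia were called lower in 11 of 21 cases, beside 10.9% of all genes tested, and higher in 1. Their median was -1.08. Stra8, which starts meiosis in response to retinoic acid, had 80.9 and 67.4 CPM at PND 14, 65 and 80.8 at PND 17, 18.1 and 32.1 at PND 21 and 23.2 and 17.3 at PND 28. It fell by 1.69 on the log2 scale (SE 0.23, adjusted p = 0.00126). Sohlh1, a factor of differentiating spermatogonia, fell by 1.88 and Sall4 by 1.67. Kit, the receptor of differentiating spermatogonia, was not called, at -0.99 (adjusted p = 0.00514, just under 2-fold). Dmrtb1, a factor at the entry into meiosis, was the member called higher, at 2.72, and had its highest levels at PND 28, 449 and 324 CPM. The count of 11 became 8 with RLE scaling and 15 with library totals. Nanos2, Nanos3 and Utf1 were too low to be tested. Of 20 genes of DNA replication, 5 were called lower and none higher, with a median of -0.57, beside 10.9% of all genes tested called lower. Mcm2, a subunit of the replicative helicase, fell by 1.63, from 64.3 to 86.2 CPM down to 17.6 to 34.7, while Top2a, a topoisomerase, was not called at 0.03 and changed sign with library totals. The count of 5 became 3 without PND 14 mouse 1 or PND 28 mouse 1. The call of Mcm4 was lost without PND 14 mouse 1 or either PND 28 mouse and that of Tyms, of thymidylate synthesis, without PND 14 mouse 1 or PND 21 mouse 1.

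Markers of somatic cells were described by cell type. Of 20 tested Sertoli cell markers, 9 were called lower, beside 10.9% of all genes tested, and none higher. The median of these markers was -1.03 and their range was -1.55 to -0.53. Their summed level was 3650.2 to 4532 CPM in the meiotic mice and 1683 to 2742 in the postmeiotic mice. Aard had 593 and 642 CPM at PND 14, 567 and 623 at PND 17, 213 and 337 at PND 21 and 204 and 182 at PND 28, and fell by 1.37 (SE 0.22, adjusted p = 0.00159). Gata1, an X-linked transcription factor, fell by 1.5, Shbg by 1.45 and Fshr, the receptor of follicle-stimulating hormone, by 1.29. The call of Fshr was lost without PND 14 mouse 1. Ctsl, a protease, was not called at -0.86 (adjusted p = 0.004). The 9 calls became 5 with RLE scaling, 16 with library totals and 2 without the PND 28 mice. Inhba and Krt18 were too low to be tested, Rhox5 was not found, and Trf was left out because its symbol has more than a single gene ID.

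Of the peritubular myoid and stromal genes, 10 of 14 were called lower, beside 10.9% of all genes tested, and 1 higher. Their median was -1.14. The collagen genes led. Col1a1 had 127 to 170 CPM in the meiotic mice and 6.64 to 62 in the postmeiotic mice and fell by 1.98 (adjusted p = 0.0114). Col1a2 fell by 1.57 and Col3a1 by 1.47, though the call of Col3a1 was lost without PND 14 mouse 2, PND 17 mouse 2, PND 21 mouse 1 or PND 28 mouse 2. The smooth muscle actin Actg2 was called higher at 2.77, with 3.93 to 11 CPM on the meiotic side, 8.11 and 8.64 at PND 21 and 81.5 and 82.7 at PND 28. Its call was lost without PND 14 mouse 2 or PND 28 mouse 2. The 10 calls became 7 with RLE scaling, 6 without PND 17 mouse 2, and 2 without the PND 28 mice. No gene was called among 8 endothelial, 8 macrophage and 3 blood markers, with medians of -0.56, -0.21 and -0.86. DESeq2 called none either. Library totals, and leaving out PND 21 or PND 21 mouse 2 alone, each gave 2 endothelial genes called lower. Leaving out PND 21 also gave 1 blood gene called higher. An unadjusted p under 0.05 in edgeR's quasi-likelihood test was seen in 3 of the endothelial genes, Pecam1, Cdh5 and Kdr, and in 0 of the macrophage and blood genes. The sides did not overlap for 2 endothelial genes.

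Leydig cells, which make testosterone, gave 3 genes called higher of 12 and none lower, beside 19.4% of all genes tested called higher. The count was 5 without PND 21 mouse 1. The median was 0.17, and -0.02 with library totals. Cyp17a1 had 32.1 and 46.6 CPM at PND 14, 50.7 and 34.8 at PND 17, 27.6 and 120 at PND 21, and 417 and 316 at PND 28. Its log2 fold change was 2.42 (SE 0.66, adjusted p = 0.0142), with overlap through PND 21 mouse 1. Cyp11a1, which makes the first step of steroid synthesis, was at 2.1 and Insl3, a hormone of Leydig cells, at 1.99. With the PND 21 mice alone as the postmeiotic side, the calls were lost, at 0.85 for Cyp17a1 (adjusted p = 0.206), 0.84 for Cyp11a1 (adjusted p = 0.183) and 0.68 for Insl3 (adjusted p = 0.055). The span of the Insl3 gene, from its start to its end, overlaps that of Jak3 on the same strand. Whether their exons overlap was not looked at. Vcam1 was not called, at -0.05 (adjusted p = 0.91).

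Markers of the epididymis, the duct beside the testis, were high in 1 meiotic mouse. Of 7 such genes, 6 were removed by the filter on low counts. Rnase10 passed it through the postmeiotic side, with 0 to 1.74 CPM and then 3.94 to 10.8, so that its call says nothing of the list. The summed level of the 7 was 196 CPM in PND 17 mouse 1, of which Crisp1 gave 2430 counts, against 0.745 to 1.76 in the other meiotic mice and 4.17 to 18.5 in the postmeiotic mice. At PND 7 it was 62.4 CPM in mouse 2, with 466 counts of Crisp1, and 0.799 in mouse 1. The part of this tissue in the results was not tested.

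The 10 largest falls, chosen with the same limits on level and overlap, were led by Spp1, osteopontin. It had 49.1 and 56.8 CPM at PND 14, 59.2 and 42.7 at PND 17, 8.57 and 11.8 at PND 21, and 4.17 and 7.3 at PND 28. It fell by 2.71 on the log2 scale (SE 0.30, adjusted p = 0.00112). Others among them were 5430435G22Rik, Ppp2r2c, Ildr2, Npnt, Fam19a5, Pde8b, Gpc3 and Igfbp3, with falls from 2.65 to 2.16. Gpc3, a cell surface proteoglycan, had 55.7 and 72.2 CPM at PND 7 and 16.3 to 27.8 on the meiotic side, and Igfbp3, which binds insulin-like growth factors, had 44.6 and 48.1 and then 20.3 to 27.3. Ppp2r2c, a regulatory subunit of protein phosphatase 2A, was different. It had 5.99 and 0.134 CPM at PND 7, 32.4 to 47.8 on the meiotic side, 9.73 and 12.4 at PND 21, and 2.21 and 1.33 at PND 28. By the mean RPKM on the meiotic side, the most abundant of the genes called lower were Hist1h1a, Snhg1, Gm12260, Aard and Cst12. The linker histone Hist1h1a fell by 1.42, from 1056 to 1255 CPM down to 309 to 709.9. Cst12 fell by 1.00, and its call was lost without PND 17 mouse 2, PND 21 mouse 1 or either PND 28 mouse. Gm12260 overlaps Trim17 on the same strand.

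Of the 1619 genes called lower, the PND 7 mean was at least 2 times the meiotic mean in 397 and within 2 times of it in 1119. In the remaining 103 the meiotic mean was at least 2 times that of PND 7. In 34 of these, with a mean of at least 10 CPM, all 4 meiotic mice were above all PND 7 and postmeiotic mice. They included Dmc1, the testis serine protease Prss50, the germ cell transketolase Tktl1, the spindle checkpoint gene Mad2l1 and Hist1h2aa. Tktl1, on the X chromosome, had 33.2 and 18.1 CPM at PND 7, 51.6 to 79.5 on the meiotic side and 22.2 to 30.9 on the postmeiotic side. Among genes called higher, 666 of 2875 had no count in either PND 7 mouse, and in 1883 the meiotic mean was already at least 2 times that of PND 7. Of all 14829 genes tested, 730 had no count in either PND 7 mouse. The meiotic mean was at least 2 times that of PND 7 in 3620 of them, and the reverse held in 1627. The meiotic values were part of the calls. This favored a high meiotic mean among genes called lower and a low meiotic mean among genes called higher.

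Within the postmeiotic side, genes called higher mostly stood higher at PND 28 than at PND 21. The PND 28 values were part of the calls, so this direction was favored by the choice of genes. The same holds in reverse for the genes called lower. Of the 2875 genes called higher, 2700 had a higher mean at PND 28 than at PND 21, and in 1371 it was at least 2 times as high. The reverse, at least 2 times as high at PND 21, was seen in 2. Of the 1619 genes called lower, 1425 were lower at PND 28 than at PND 21 and 222 were at least 2 times lower. Over all genes tested, PND 28 was higher in 7052 and lower in 7777. With the PND 21 mice alone as the postmeiotic side, 1931 genes were called higher and 642 lower. With the PND 28 mice alone, the counts were 4115 and 2987. Both comparisons use the same meiotic mice.

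**Figure D4:**
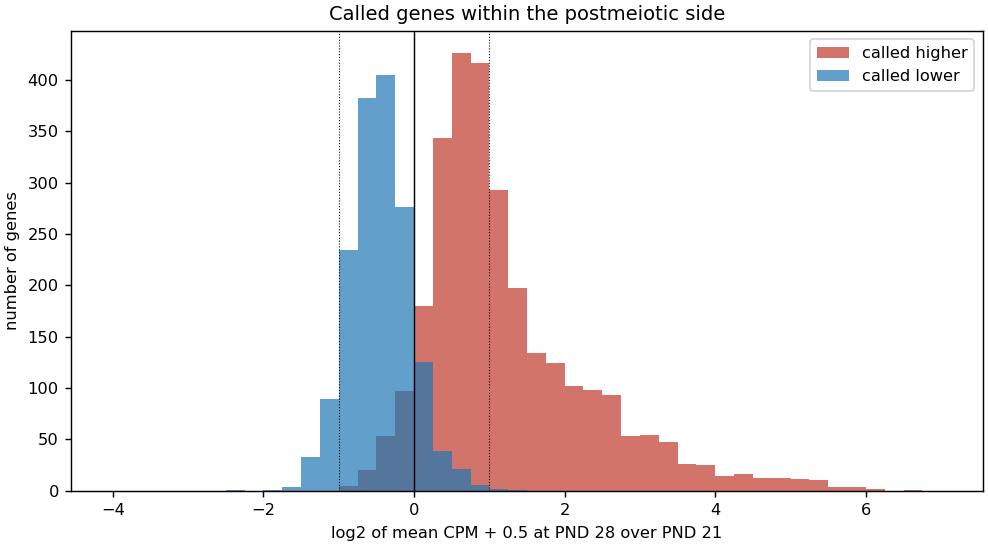
Number of called genes against the log2 ratio of the mean CPM, with 0.5 added, at PND 28 over PND 21. Dotted lines mark a ratio of 2 in either direction. The calls themselves used the PND 28 values. Of 2875 genes called higher, 2700 lie to the right of 0, and of 1619 called lower, 1425 lie to its left.

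In male meiosis the X and Y chromosomes are silenced in the sex body at the pachytene stage, and part of this silence lasts in spermatids. Of 595 X-linked genes tested, 177 were called lower (29.7%) and 57 higher (9.58%), and the median log2 fold change was -0.79. On the 19 autosomes, 9.01% to 14.6% of genes were called lower and 16.6% to 22.6% higher, with medians from -0.21 to -0.03. The lower share of the X was 19.2% with RLE scaling and 43.5% with library totals, against 7.09% and 16.1% of autosomal genes. It was 116 genes without PND 28 mouse 1. X-linked genes took 3.29% and 2.82% of nuclear counts at PND 14, 2.62% and 3.0% at PND 17, 1.51% and 1.72% at PND 21, and 1.37% and 1.67% at PND 28, against 4.2% and 4.16% at PND 7. The mean went from 2.93% ± 0.285 (SD, n = 4) to 1.56% ± 0.158 (SD, n = 4), with no overlap. The exact two-sided permutation test gave p = 0.0286, the smallest that 4 mice against 4 allow, and 0.0714 after adjustment over 5 values. The Y-linked share went from 0.0436% ± 0.00212 (SD, n = 4) to 0.0226% ± 0.0019 (SD, n = 4), with the same exact p = 0.0286 and adjusted value of 0.0714. Only 8 Y-linked genes were tested.

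**Figure D5:**
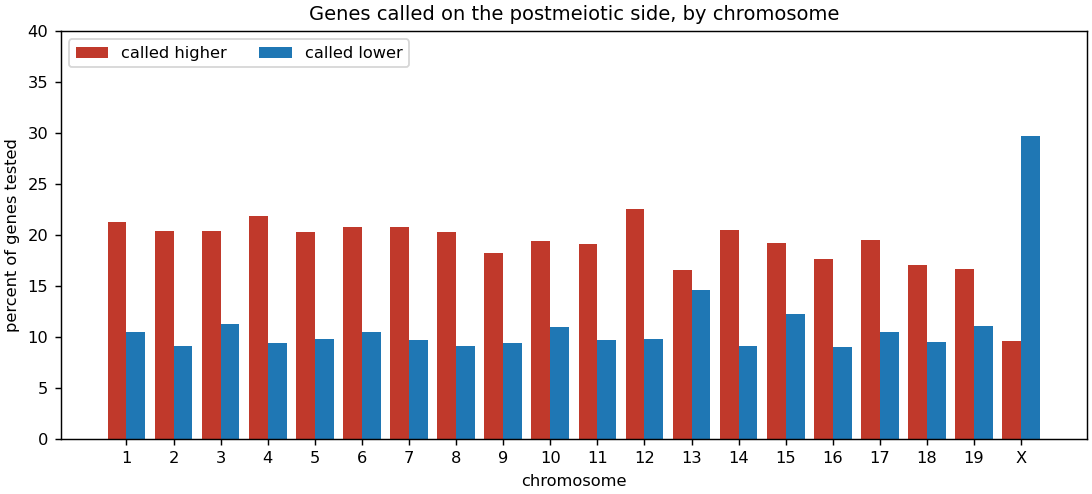
Percent of the genes tested on each autosome and the X chromosome that were called higher (red) or lower (blue) on the postmeiotic side. The X chromosome has 29.7% lower and 9.58% higher, against 9.01% to 14.6% lower and 16.6% to 22.6% higher on the autosomes.

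The 57 X-linked genes called higher had a median log2 fold change of 5.51, and the 2818 autosomal genes called higher a median of 2.12. Of the 57, 54 (94.7%) were at least 2 times higher at PND 28 than at PND 21, and 34 (59.6%) had no count at PND 7. Of the 2818 autosomal genes, these numbers were 1317 (46.7%) and 632 (22.4%). The PND 28 values were part of these calls as well. The leading genes with at least 10 CPM were Fam47a-ps at 7.12, Cypt3 at 6.48, Tex13a at 6.43, Fam122c at 6.18 and Akap4. Tex13a, a germ cell gene, had 0.901 CPM in PND 14 mouse 1, at most 0.145 in the other meiotic mice, 2.55 and 4.32 at PND 21, and 40.7 and 59.5 at PND 28. Those with the largest falls were Gpc3 at -2.16, Hs6st2 at -1.80, Nrk at -1.71, Map3k15 at -1.64 and Gm371 at -1.61. Nrk, a kinase gene, had 327 and 357 CPM at PND 7, 60.6 to 118 on the meiotic side and 11.3 to 45.8 on the postmeiotic side.

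Several X-linked housekeeping genes have a retrocopy on an autosome that is expressed in male germ cells. Gk2, the copy of the glycerol kinase gene Gyk, had 49 to 164 CPM on the meiotic side and 522 to 1103 on the postmeiotic side, a log2 fold change of 2.98 (SE 0.41, adjusted p = 0.0013). Gyk was not called at -0.99 (adjusted p = 0.0309). Pdha1, of pyruvate dehydrogenase, fell by 1.03 (adjusted p = 0.00539), just past the 2-fold limit, a call that was lost without PND 14 mouse 2, either PND 17 mouse, PND 21 mouse 1 or PND 28 mouse 1. Its copy Pdha2 had 48.9 to 109 CPM and then 139 to 194 and was not called, at 0.89. The copy Rpl10l, of a ribosomal protein, was called higher at 1.16, and G6pd2, of glucose-6-phosphate dehydrogenase, at 3.45. Rpl10 and G6pdx were not called, at -0.69 and -0.58. The values of Rpl10 were uneven within a side. They were 26.2 CPM in PND 14 mouse 1 and 71.3 to 89.7 in the other meiotic mice. On the postmeiotic side they were 94.2 in PND 21 mouse 2 and 20.8 to 24.5 in the other mice. The span of Rpl10 overlaps that of a small nucleolar RNA gene. Utp14a was at -0.65 and its copy Utp14b at 0.73, neither called. Cstf2 was at -0.44 and its copy Cstf2t at 0.07, which changed sign with library totals. Pgk1, whose copy Pgk2 is described above, was not tested. In all 6 pairs with both genes tested, the fitted change of the autosomal copy was above that of the X-linked gene.

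Long noncoding genes were tested beside the coding genes. Of 301 lincRNA genes tested, 131 were called higher (43.5%) and 10 lower (3.32%), and of 291 processed transcripts, 154 higher (52.9%) and 11 lower (3.78%). The 10 lincRNA genes called lower became 6 without PND 14 mouse 2 or PND 28 mouse 2. The shares of 13557 protein-coding genes were 18.6% and 11.4%. Genes of any class near 0 on the meiotic side, such as Gm13872, passed the filter on low counts only through the postmeiotic mice. Such genes could not be called lower, and how far this shaped the shares of each class was not tested. The lincRNA genes with the largest rises and at least 10 CPM were 4930458D05Rik at 5.50, 1700023L04Rik at 5.09 and D830044I16Rik at 4.52. D830044I16Rik had 6.53 CPM in PND 14 mouse 1, 0.994 to 1.74 in the other meiotic mice, 19.2 and 18.1 at PND 21, and 126 and 94 at PND 28. The processed transcript 1700016G14Rik, at 6.71, had 0 to 1.91 CPM and then 25 to 130.3. These were chosen by size after their values were seen. Several long noncoding genes overlap coding genes, as Gm13872 does Slc1a2, and reads of both cannot be told apart without strand.

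Small nucleolar RNAs were called lower in 26 of 258 genes (10.1%), close to the 10.9% of all genes tested, and higher in none, with a median of -0.77. Snord22 had 973 and 2051 CPM at PND 14, 2710 and 1571 at PND 17, 271 and 965 at PND 21, and 285 and 346 at PND 28, and fell by 1.97 (adjusted p = 0.00885). Its host gene Snhg1 fell by 1.37, with 1537 CPM in PND 14 mouse 1 and 2244 in PND 21 mouse 2, so that the sides overlapped, and its call was lost on leaving out any mouse but these. Snhg1 overlaps 8 small nucleolar RNA genes on its strand, Snord22 among them, so their reads may be counted in it. Small structural RNAs took 4.07% of all counts in PND 14 mouse 1 and 6.36% to 8.09% in the other meiotic mice, and 5.45% in PND 21 mouse 2 and 2.69% to 3.26% in the other postmeiotic mice. The count of 26 became 86 on leaving out PND 14 mouse 1 and 95 on leaving out PND 21 mouse 2. It was between 7 and 15 without any of the other 6 mice. The mean share was 6.64% ± 1.89 (SD, n = 4) against 3.58% ± 1.27 (SD, n = 4), with an exact permutation p = 0.0571 and 0.0952 after adjustment. Mitochondrial genes took 25.9% ± 1.45 (SD, n = 4) and 19.0% ± 5.86 (SD, n = 4) of all counts, with an exact permutation p = 0.114 and an adjusted value of 0.143. PND 21 mouse 2 was at 27.6%, within the range of the meiotic mice.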

How the data were processed

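Reads were aligned by the authors to mm9 with LifeScope, and the deposited tables give the raw count of uniquely placed reads per Ensembl gene, summed over its exons, with RPKM computed by the authors from the same counts. The use of strand in counting is not given in the sources used here. The PND 7 libraries, split over barcodes, were summed. The tables gave 37675 genes, of which 365 were not in the annotation.

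Counts were tested with edgeR 4.0.16 in R 4.3.3 (quasi-likelihood test, TMM factors from all 10 mice, the fit on 8 mice with the side as the only term, low counts filtered by side). Genes with a p below 0.05 after Benjamini-Hochberg adjustment and at least a 2-fold difference were called. The deposited RPKM were used only to compare levels between genes and in limma 3.58.1 on log2(RPKM + pseudocount). DESeq2 1.42.0, RLE factors, library totals, other filters and fold limits, a replicate block, and the omission of single mice and ages were tried as alternatives. Shares were compared with exact two-sided permutation tests in scipy 1.17.1. The fit was tested on simulated data. Counting intervals and floors cover counting error only. The mice were separate animals, 2 at each age.

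The members and the 19 gene lists were chosen with earlier results of these data known. Genes were named by rule: the 10 largest rises and falls among called genes of at least 10 CPM whose sides did not overlap, up to 4 called members of each list with the largest change and its most abundant uncalled member, the 5 most abundant called genes in each direction, the retrogene pairs, and the 5 largest X-linked rises and falls of at least 10 CPM. A gene that the rule names is not reported here. Other genes named, such as Prm2, Prm3, Acr, Ace, Pcsk4, Crem, Spo11, Sycp1, Kit, Taf7l, Izumo1, the histone genes, the noncoding genes and those highest on the meiotic side, were chosen after their values were seen. Of the 121 genes named by rule, 18 overlap another gene with at least 100 counts, 8 of them on the same strand. Counts of Cypt3, the histone genes, Rpl10 and the Hbb genes may be shared with near-identical copies.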

Additional observations from a re-analysis of the deposited data

Results flagged for a closer look

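Of 252 sets of 4 values checked, 34 (13.5%) held a mouse farther from the others of its side than Dixon's critical value at the 95% level allows. Each set pooled 2 ages, some held only a few counts, and many genes were chosen for the size of their change. The share that would pass this value by chance is therefore not known. Of the 34, 26 were in PND 14 mouse 1. In that mouse the transition protein, protamine and linker histone genes stood at 56.9 CPM for Tnp1, 36.4 for Tnp2, 53.9 for Prm1, 11.6 for Hils1 and 8.22 for H1fnt. The flagellum genes stood at 62.4 CPM for Akap4, 7.66 for Fscb, 5.52 for Ropn1 and 3.49 for Odf3. Of the ion transport genes, Atp1a4 was at 18.5 CPM, Catsper4 at 2.93 and Catsper1 at 2.59. The energy genes Gapdhs, Aldoart2 and Aldoart1 were at 24.7, 3.27 and 1.80 CPM. The kinases Tssk2, Tssk3 and Tssk4 were at 5.41, 2.70 and 2.37 CPM, and the Crem coactivator Fhl5 at 5.86. Tex13a was at 0.901 CPM, 1700022P22Rik at 0.676, Plac8l1 at 0.676, Fam47a-ps at 0.563 and Gm13872 at 0.338. In these the other 3 meiotic mice were lower. PND 14 mouse 1 was also above the other meiotic mice in Eif4g3, at 152 CPM, and below them in Pdha1, at 22.2 CPM.

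The remaining 8 values were in other mice. Tssk5 was at 0.136 CPM in PND 14 mouse 2, which was a single count. Ccna1 was at 12.0 CPM in PND 17 mouse 1, above the other meiotic mice. PND 21 mouse 2 was above the other postmeiotic mice in Hist1h1a, at 709.9 CPM, Rpl10, at 94.2, and Mcm5, at 59.1. PND 28 mouse 1 was below them in Rad21l, at 7.29 CPM, and Fshr, at 3.64. PND 28 mouse 2 was below them in Utp14a, at 6.63 CPM. The source of these values was not tested.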

How the results depend on the processing

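The 4494 called genes became 2734 without the PND 14 mice, 7102 without PND 21 and 2573 without PND 28, and 6929 at a fold limit of 1.5 and 7351 with no fold limit. The 2875 genes called higher stayed within 1.5 times under every alternative run, while the 1619 called lower became 2554 with library totals, 2633 with limma on log2(RPKM + 0.1), 661 without PND 14, 1021 without PND 17, 2987 without PND 21, 642 without PND 28, 3320 at a fold limit of 1.5 and 3596 with no fold limit. Leaving out single mice gave 3695 to 5745 calls, 2515 to 3350 of them higher and 1180 to 2395 lower. The fit with the replicate number as a block gave 4443 calls, 2835 higher and 1608 lower, but deviations of same-numbered mice correlated at -0.28 to 0.42, over 0.1 in 2 of 6 pairs of ages, so the numbers were not taken to pair the mice. The X-linked share difference was -1.47 to -1.25 percentage points and the Y-linked -0.0220 to -0.0203 when single mice were left out, with an exact permutation p of 0.0571, the smallest that 3 mice against 4 allow. The difference in genes with a count, -206.75, turned to 351.5 with every library thinned to the smallest total, and spanned -762.7 to 223 with single mice left out, above 0 without PND 17 mouse 1, PND 21 mouse 1 or PND 28 mouse 2. The CRE share of genes called higher minus that of genes tested was 0.161 percentage points, and -3.35 for its first 5 letters.

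Of the settings run for the named genes, 2681 kept direction and side of the threshold, 149 lost the call, 32 gained it and 42 changed sign. Without PND 28, the sign changed in Tnp1 (-0.56), Tnp2 (-0.16), Prm1 (-1.27), Stk31 (0.161) and Mrc1 (0.0455). In Tnp1, Tnp2 and Prm1 both PND 21 mice lay below PND 14 mouse 1 and above the other 3 meiotic mice. The other sign changes were in uncalled genes near 0. With DESeq2, RLE factors and TMM factors from the 8 mice, Stk31 was at 0.0614, 0.0569 and 0.011, Sycp2 at 0.0978, 0.0923 and 0.0473, and Vcam1 at 0.0674, 0.0615 and 0.0272. Vcam1 was at 0.0037 on age means. With library totals and limma with a pseudocount of 0.1 or 1, Top2a was at -0.0956, -0.198 and -0.191 and Cstf2t at -0.0823, -0.0915 and -0.089. Without PND 14, Top2a was at -0.0099 and Cstf2t at -0.0517. Without PND 17, Sycp2 was at 0.0308, Vcam1 at 0.383 and Mrc1 at 0.0822. Without PND 21, Top2a was at -0.291. With single mice left out, the values spanned -0.173 to 0.0368 in Stk31, -0.148 to 0.0742 in Sycp2, -0.236 to 0.178 in Top2a, -0.227 to 0.26 in Vcam1, -0.294 to 0.0592 in Mrc1 and -0.0603 to 0.145 in Cstf2t. The cause of these changes was not tested.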
